A study of Homo sapiens with 10 samples.

Results

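Symmetric dimethylation of histone H4 at arginine 3 (H4R3me2s) was profiled by ChIP-seq in naive SH-SY5Y cells, and the regions described here are those in which a peak over Input recurred in 2 or 3 of the 3 Naive libraries. Peaks that overlapped by 1 bp or more were merged, which gave 25798 regions, of which 214 (0.83%) recurred. Of these, 185 lay on chromosomes 1 to 22 and X, where 25633 regions were merged (0.722% recurred). The other 29 lay on contigs called unplaced here, where 165 were merged (17.6% recurred). Such contigs are assembled sequence without a known position on a chromosome. Merging the peaks of all 9 antibody libraries of the study gave 65942 regions.

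SH-SY5Y is a human neuroblastoma line of noradrenergic origin. The cells carry a Tet-on system for α-synuclein, and the growth medium was DMEM with 10% FCS and 300 µg/ml zeocin. The Naive cells are labelled as untreated and received neither the retinoic acid and BDNF used for differentiation nor the doxycycline used for induction. Chromatin was fixed for 10 minutes with 1% formaldehyde and sonicated, and an Epigentek antibody to H4R3me2s was used. The Input is 1 library of untreated SH-SY5Y cells made without antibody, and all 3 Naive libraries were called against it, so their peaks share its fluctuations. The labels do not say whether the 3 libraries came from separate cultures, so the spread between them may be technical.

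H4R3me2s is written mainly by PRMT5, a type II arginine methyltransferase that works with its cofactor WDR77, and it is generally associated with gene repression. PRMT5 can be brought to chromatin by partners, among them BAF (SWI/SNF) remodelling complexes, and the title of the study places α-synuclein with such a complex. The Naive libraries were made with an antibody to the mark from the line before differentiation and induction.

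No peak sequence could be read, but start sequences of genes from RefSeq (GRCh38.p14) show where the peaks did and did not fall. Shown are the 250 bases upstream of the start, 5′ to 3′ on the strand of the gene, with the bases inside a Naive peak in capitals. The first 3 genes held the strongest peak of each library on the start window of a protein-coding gene, and the last 2 are the genes of known strand whose start lay within 2 kb of a recurring region. RGS18 (chr1:192158212-192158461, plus strand), a regulator of G-protein signalling, had a peak of Naive 1 with 11 fragments at its summit over 139 of these bases. SPATA46 (chr1:162376855-162377104, minus strand) had a peak of Naive 2 with 8 fragments over 22 bases. OR13H1 (chrX:131543824-131544073, plus strand), an olfactory receptor gene, had a peak of Naive 3 with 9 fragments over 146 bases. GPR75-ASB3 (chr2:53859968-53860217, minus strand) and OR6P1 (chr1:158570581-158570830, minus strand) had none of these bases in a peak.
RGS18: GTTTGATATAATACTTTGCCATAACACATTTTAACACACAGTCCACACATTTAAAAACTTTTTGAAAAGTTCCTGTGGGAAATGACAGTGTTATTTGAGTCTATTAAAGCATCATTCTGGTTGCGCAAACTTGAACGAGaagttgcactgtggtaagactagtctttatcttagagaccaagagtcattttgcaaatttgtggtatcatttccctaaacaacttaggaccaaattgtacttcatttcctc
SPATA46: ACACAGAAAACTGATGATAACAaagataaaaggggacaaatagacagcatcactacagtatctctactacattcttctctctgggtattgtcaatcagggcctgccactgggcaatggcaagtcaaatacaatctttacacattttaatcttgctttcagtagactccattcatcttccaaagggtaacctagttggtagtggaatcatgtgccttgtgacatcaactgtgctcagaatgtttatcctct
OR13H1: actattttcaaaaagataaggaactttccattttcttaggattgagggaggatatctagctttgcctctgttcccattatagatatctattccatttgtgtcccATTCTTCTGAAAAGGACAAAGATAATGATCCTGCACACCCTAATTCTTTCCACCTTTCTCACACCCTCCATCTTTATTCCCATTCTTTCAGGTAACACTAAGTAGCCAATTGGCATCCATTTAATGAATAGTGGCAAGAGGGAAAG
GPR75-ASB3: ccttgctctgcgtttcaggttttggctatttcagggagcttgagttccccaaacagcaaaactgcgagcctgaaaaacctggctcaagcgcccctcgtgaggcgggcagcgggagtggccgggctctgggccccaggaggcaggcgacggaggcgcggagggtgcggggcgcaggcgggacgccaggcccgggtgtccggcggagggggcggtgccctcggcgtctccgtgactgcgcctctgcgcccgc
OR6P1: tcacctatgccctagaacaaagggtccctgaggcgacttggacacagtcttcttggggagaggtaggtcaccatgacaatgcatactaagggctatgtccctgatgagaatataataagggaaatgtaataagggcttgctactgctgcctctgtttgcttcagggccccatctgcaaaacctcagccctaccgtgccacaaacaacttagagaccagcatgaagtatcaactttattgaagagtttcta
The 3 stretches with a peak are rich in A and T. The GC content is 34.8% at RGS18, 40.0% at SPATA46 and 38.0% at OR13H1, and the dinucleotide CG occurs 2, 0 and 0 times. GPR75-ASB3 has a start of the CpG-rich kind, with 70.4% GC and 25 CG. OR6P1 has 46.8% GC and 2 CG. The recurring region near GPR75-ASB3 began 1088 bp downstream of the start and that near OR6P1 1842 bp downstream.

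The pattern in those starts held over all start windows of 300 bp, 250 before and 50 after each start. Of 34789 windows, 33 overlapped a peak of any Naive library and 0 overlapped a recurring region. The windows with a peak had a median GC content of 40.3%, against 58.7% over all windows. Ranked by GC content into 5 groups, the windows with a peak numbered 21, 10, 2, 0 and 0 from the lowest GC to the highest, or 0.301%, 0.142% and 0.0287% of the first 3 groups. No window above 55.3% GC held a peak, although 57.5% of windows lie above that value. Among the 21982 windows of protein-coding genes 9 held a peak. The part of GC content in the recovery of fragments was not tested.

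**Figure D1:**
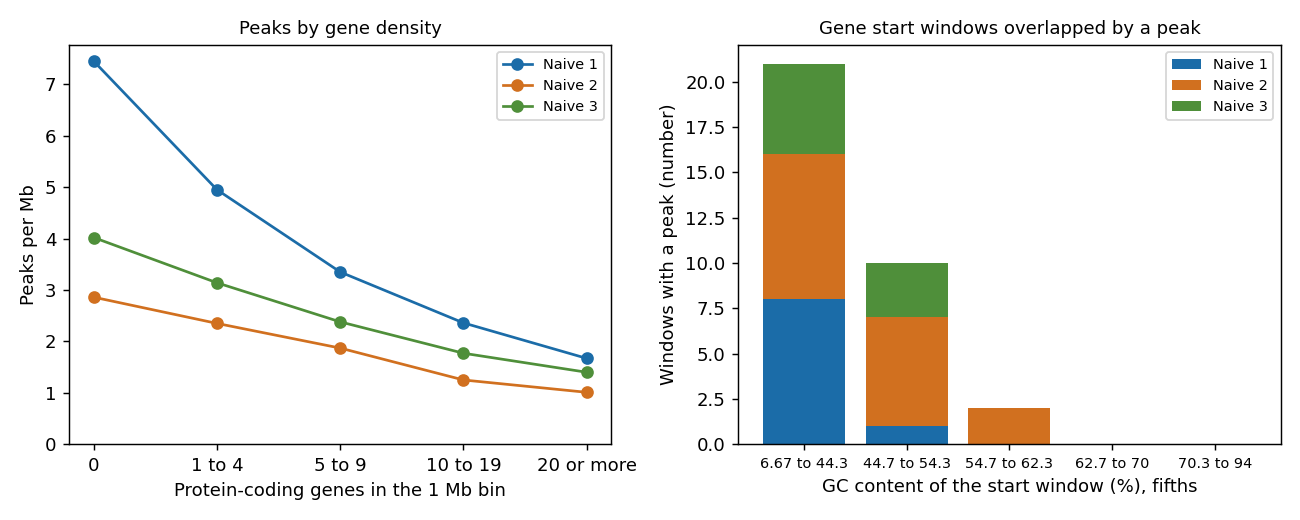
Left, peaks per Mb (y axis) in each Naive library by the number of protein-coding genes in a 1 Mb bin (x axis); the points fall from 7.45, 2.86 and 4.02 in bins without such genes to 1.67, 1.01 and 1.40 in bins with 20 or more. Right, number of gene start windows overlapped by a peak (y axis, stacked by library) in 5 groups of rising GC content (x axis, %); 31 of the 33 windows are in the 2 groups of lowest GC.

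The peak lists themselves were long, shallow and unequal. Naive 1, 2 and 3 held 12207, 5901 and 7914 peaks, a mean of 8674 ± 3221 (SD, n = 3), although 17813944, 18147647 and 17813382 reads were kept per library. The peaks covered 2277, 1145 and 1699 kb, or 1707 ± 566 kb. A chromosomal peak held a median of 7 fragments at its summit in each library, with quartiles of 6 and 8 and a lowest value of 5. The local background is the number of fragments that MACS2 expected at the place from the Input. Its median over chromosomal peaks was 1.06, 1.09 and 1.14 fragments. It stood at or just above its genome-wide floor in 39.0%, 49.6% and 56.2% of these peaks. At a q-value of 0.05 or less there were 58, 27 and 44 peaks, which is 0.475%, 0.458% and 0.556% of the lists. Naive 1 thus had the longest list by far, at the same median and quartiles of height. Its chromosomal peaks had a median −log10 p of 3.82, against 3.68 and 3.62 in Naive 2 and 3. Peaks with −log10 p of 5 or more numbered 1790, 487 and 715 in Naive 1, 2 and 3.

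Recurring regions on the chromosomes had peaks of the same height as regions seen in 1 library. The median was 7 fragments at the summit in both, with a median −log10 p of 3.70 in both and a median fold over background of 3.52 and 3.51. Of the 185 regions, 181 had peaks in 2 libraries and 4 in all 3 (0.0156% of merged regions). In 3 of these 4 a stretch was common to all 3 peaks, and in the other the peaks were only chained by overlap. Naive 1 and 3 shared 84 of the 181, Naive 1 and 2 shared 50, and Naive 2 and 3 shared 47, so the pair with the longest lists also shared the most. Peaks inside recurring regions made up 1.14%, 1.73% and 1.72% of the chromosomal peaks of Naive 1, 2 and 3. The regions were short, with a median of 286 bp and a range of 170 to 675 bp. The stretch common to all their peaks had a median of 114 bp, and the summits lay a median of 86 bp apart. Peaks of −log10 p of 5 or more in 1 library or more marked 51 regions (27.6%), and in 2 libraries or more 6 regions. A q-value of 0.05 or less was reached in any library in 8 regions and in 2 libraries in 1.

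**Figure D2:**
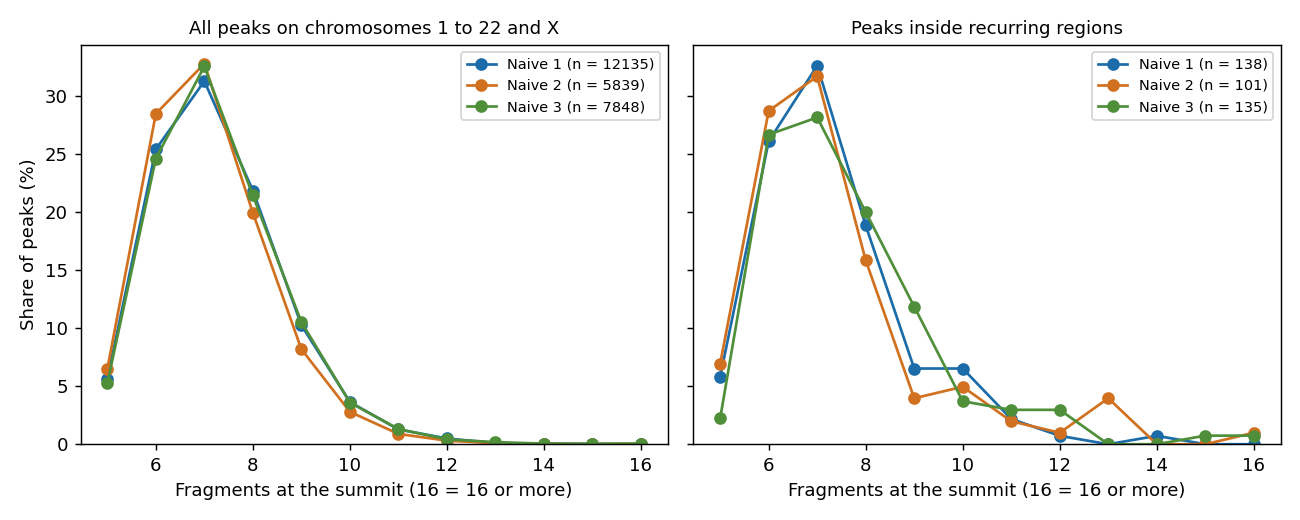
Share of peaks (y axis, %) by the number of fragments at the summit (x axis; the last point is 16 or more) for all chromosomal peaks (left) and for those in recurring regions (right), with 1 line per Naive library. The lines of all 3 libraries peak at 7 fragments in both panels.

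The edge of the overlap rule was sharp. The smallest overlap that made a region was 1 bp, at chr3:143901815-143902185, with −log10 p of 4.20 in Naive 1 and 4.00 in Naive 2. The nearest pairs left out had a gap of 2 bp, as at chr4:134701739-134702120, with 4.99 in Naive 1 and 3.62 in Naive 3. In all, 33 neighbouring pairs from different libraries lay up to 50 bp apart without touching.

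A lncRNA gene, an axonal enzyme gene and a stretch between genes were among the places with a peak in every Naive library. The strongest of the 4 chromosomal regions, chr11:94234554-94234832, lay in the lncRNA gene LOC105369435. It had 14, 13 and 19 fragments at the summit in Naive 1, 2 and 3, over a background of 3 fragments in each. The folds were 3.61, 3.31 and 4.80 and the −log10 p values 5.47, 4.79 and 9.25. All 3 peaks covered a common 163 bp and their summits lay within 17 bp. It was the tallest of them in every library and also the one with the highest background. The nearest protein-coding gene, 52.6 kb away, was PANX1, which encodes a channel protein.

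The region chr1:183336684-183337117 lay inside NMNAT2, whose product makes NAD in axons and is needed for their survival. The summits held 8, 9 and 7 fragments, with −log10 p of 5.13, 5.84 and 3.77. The 3 peaks had only 10 bp in common, and their summits were spread over 233 bp. These were the only peaks of each library in or within 2 kb of this gene of 170.1 kb. In contrast, chr7:54290281-54290565 had 6, 7 and 7 fragments with 156 bp in common and no annotated gene, and VSTM2A, a gene of a secreted immunoglobulin-domain protein, lay 251.8 kb away. Its −log10 p values were 3.10, 3.77 and 3.54, so it was even across the libraries but weak.

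**Figure D3:**
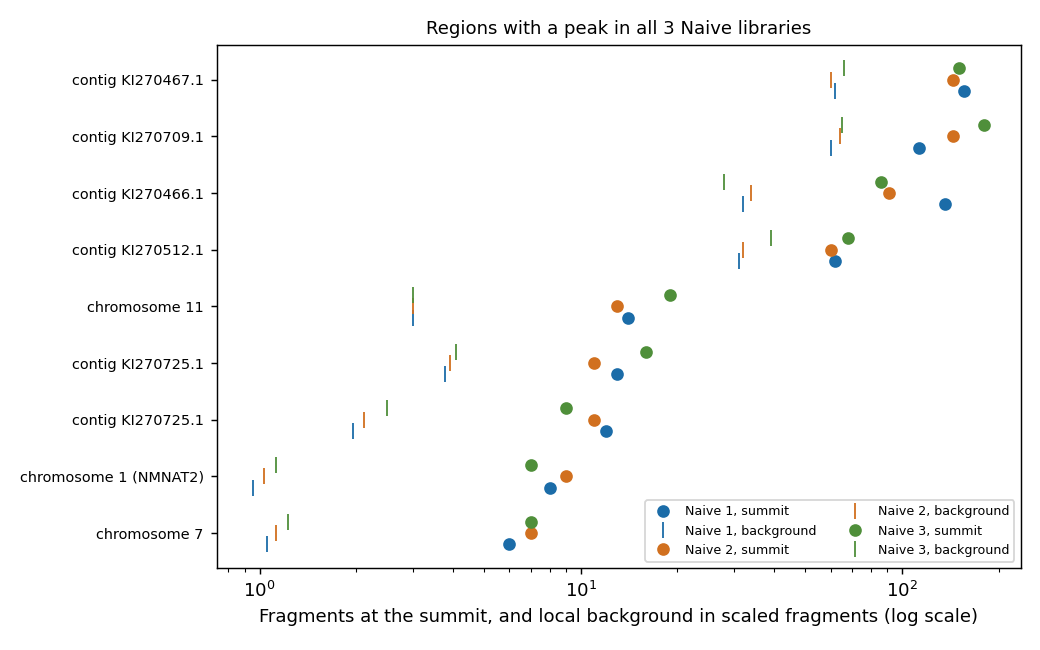
Fragments at the summit (points) and local background in scaled fragments (ticks) on a log x axis for 9 of the 10 regions with a peak in all 3 Naive libraries (y axis), coloured by library. The upper contigs lie above 50 fragments on a background above 20, the chromosomal regions between 6 and 19 fragments on a background of 3 or less.

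Few recurring regions lay at gene ends. A gene end was taken as 2 kb around the transcription start where RefSeq gives the strand (15811 of 19970 protein-coding genes) and around both ends of the others. By that measure 3 of 185 regions were at gene ends, 1.62% (Wilson 95% interval 0.553 to 4.66, which covers counting error only). Regions seen in 1 library were there in 1.43% and the peaks of the libraries in 1.48% ± 0.193 (SD, n = 3), while gene ends make up 3.42% of the usable length, the 1 Mb bins that hold an annotated gene. The interval of the recurring share includes each of these values, that of usable length too. The 3 regions were weak. At GPR75, a G-protein coupled receptor gene, and the readthrough gene GPR75-ASB3, chr2:53858521-53858879 had 7 fragments in Naive 1 and 7 in Naive 2. At the olfactory receptor gene OR6P1, chr1:158568474-158568738 had 6 in Naive 1 and 6 in Naive 3. None of the 3 reached −log10 p of 5 in any library. With windows of 5 kb the share was 5.41%, but the 3.42% of usable length holds for 2 kb windows only.

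Gene interiors held 64 regions, 34.6% (28.1 to 41.7), against 36.6% of regions in 1 library, 36.8% ± 1.04 of peaks and 41.3% of usable length. Noncoding genes and pseudogenes held 21, 11.4% (7.55 to 16.7), against 14.9%, 14.9% ± 0.559 and 13.9%. The other 97, 52.4% (45.3 to 59.5), lay in no annotated gene, against 47.0%, 46.8% ± 1.21 and 41.3%. The intervals of the recurring shares include the mean share of all peaks in each of these classes. The 97 intergenic regions lay a median of 231 kb from the nearest protein-coding gene, and 27 lay more than 500 kb away.

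Of the 19970 protein-coding genes, 68 (0.341%) had a recurring region in or within 2 kb, and 4371 (21.9%) had a peak of any Naive library. The 68 were long genes, with a median length of 269.8 kb against 24.2 kb over all protein-coding genes. Among them 47 (69.1%) exceeded 100 kb, against 16.8% of all. The 4371 genes with any peak had a median of 104.6 kb, and the 487 genes with peaks of all 3 libraries, whether or not these overlapped, a median of 408.9 kb. Median length thus rose from all genes to those with any peak, and further to those with a recurring region. The part of gene length in any gene list below was not tested.

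Among regions inside genes with peaks in 2 libraries, the strongest lay in NPSR1, CFHR2 and FRG2C. NPSR1, the neuropeptide S receptor gene, held chr7:34789910-34790224 with 9 fragments in Naive 1 and 11 in Naive 3 and −log10 p of 5.29 and 5.08. It was the only such region in a protein-coding gene with both values above 5. CFHR2, of the complement factor H family, held chr1:196949906-196950243 with 9 fragments in Naive 1 and 10 in Naive 2. FRG2C, a short gene of 2.85 kb, held chr3:75666819-75667040 with 10 in Naive 1 and 8 in Naive 3. CFHR2 and FRG2C belong to families of near-identical copies, so reads may be shared between copies and these places are uncertain.

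The next in strength included an axon guidance gene and a synaptic adhesion gene. SEMA3A, which encodes a secreted repellent of growing axons, held chr7:84056160-84056551 with 8 fragments in Naive 2 and 8 in Naive 3. LRRC4C, the gene of the postsynaptic netrin-G ligand, held chr11:41258476-41258859 with 7 in Naive 1 and 8 in Naive 3. GALNTL6, of the family that starts mucin-type O-glycans, held chr4:172968963-172969176 with 7 in Naive 1 and 10 in Naive 3. CCDC126 held chr7:23644526-23644877 with 8 in Naive 1 and 12 in Naive 3, the tallest peak of this group. VPS13B, whose product carries lipids at the Golgi, had 8 in Naive 1 and 8 in Naive 3. RBM25, a splicing regulator gene, held chr14:73102026-73102236 with 10 in Naive 2 and 8 in Naive 3. SLC30A6, a Golgi zinc transporter gene, held chr2:32201976-32202262 with 8 in Naive 2 and 8 in Naive 3, where the pseudogene DDX50P1 also lies. Each of the 10 genes thus had its region at 7 to 12 fragments, in 2 libraries of varying pairs.

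Only 2 protein-coding genes held 2 recurring regions each. EXOC4, which encodes a subunit of the exocyst that tethers secretory vesicles, held chr7:133334634-133335082 with 7 fragments in Naive 2 and 9 in Naive 3. Its other region, chr7:133476319-133476823, had 7 in Naive 1 and 7 in Naive 3. ATRNL1, an attractin-like gene, held chr10:115214433-115214817 with 7 in Naive 1 and 6 in Naive 2 and chr10:115260791-115261049 with 6 in Naive 1 and 7 in Naive 3. These genes are 847.9 and 855.6 kb long.

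Among the gene lists, neuronal adhesion had the most members with a recurring region, in a list of long genes. Of 33 neuronal adhesion genes 3 (9.09%) held a recurring region, against 0.341% of all protein-coding genes, among them LRRC4C and NLGN1. NLGN1, the gene of a postsynaptic adhesion protein, had 7 fragments in Naive 1 and 7 in Naive 3 at chr3:173428058-173428235. A peak of any library was in or near 24 of the 33 (72.7%), against 21.9% of all genes, and the median length of the list was 380 kb. Of 30 axon guidance genes 2 (6.67%) held one, SEMA3A and SEMA6D, and 23 (76.7%) had any peak, at a median length of 348 kb. SEMA6D, a transmembrane semaphorin gene, had 6 fragments in Naive 2 and 6 in Naive 3 at chr15:47284008-47284418. Of 34 synapse genes with the same median length of 348 kb, 0 held a recurring region and 20 (58.8%) any peak, among them GRIN2A and GRIN2B for NMDA receptor subunits and PCLO for a presynaptic scaffold.

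All 26 large genes of common fragile sites, with a median length of 1470 kb, had a peak of any library, from FHIT and WWOX to DMD and CSMD1. Even so only EYS, a photoreceptor protein gene of 1987 kb, held a recurring region (3.85%), at chr6:65262049-65262397 with 7 fragments in Naive 2 and 6 in Naive 3. Among the 400 olfactory receptor genes 2 (0.5%) had one, OR6P1 and OR5D16, and 68 (17%) any peak, near the 0.341% and 21.9% of all genes. These are short genes, with a median length of 3.11 kb against 24.2 kb over all protein-coding genes. The region of OR5D16, chr11:55841508-55841834, lay past the gene and had 6 fragments in Naive 1 and 6 in Naive 3.

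The genes of the mark's own machinery lay outside the recurring set. PRMT5 had 0 peaks in or within 2 kb in each Naive library. Of the 7 genes of H4R3me2s writers and cofactors 0 held a recurring region and 1 (14.3%) any peak, RIOK1, which encodes an adaptor of PRMT5. None of 7 other arginine methyltransferase and demethylase genes had a peak. Of 30 BAF complex genes 0 held a recurring region and 4 (13.3%) any peak: SMARCC1, ARID1B, ARID2 and BCL11A. Of 15 histone H4 genes only H4C15 had any peak, and 0 a recurring region. Of 22 synuclein and Parkinson disease genes 0 had a recurring region and 6 (27.3%) any peak, including LRRK2 and MAPT. With 0.341% of all genes holding a recurring region, 0 in lists of this size is near that background.

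Marker and driver genes of neuroblastoma gave the same count of 0 recurring regions. Any peak was found at 4 of 20 noradrenergic markers (20%: DDC, SLC18A2, STMN2 and EYA1), near the 21.9% of all genes. It was found at 8 of 17 mesenchymal markers (47.1%), such as RUNX1, RUNX2 and YAP1, and at 3 of 18 markers of other cell types (16.7%, such as APOB and PTPRC). The median lengths of these lists were 13.8, 75.2 and 11.9 kb. A peak of a histone mark is not expression, so these counts do not bear on the identity of the cells. Of 17 driver genes 9 (52.9%) had any peak, among them ALK, ATRX and PTPRD. The median length of that list was 86.1 kb, against 24.2 kb over all protein-coding genes. The cell adhesion gene L1CAM had 0 peaks in each library. Cell cycle genes (0 of 31), zinc finger ZNF genes (0 of 518) and protocadherin genes (0 of 41) also lacked recurring regions, with any peak at 16.1%, 19.9% and 56.1%. The spans of the clustered protocadherin genes overlap, so 1 peak can count for several of them. The median lengths of these lists were 19.2, 23.7 and 25.3 kb.

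Noncoding genes with a recurring region, including those that lie inside protein-coding genes, were 22 lncRNA genes, 2 pseudogenes and 1 transcribed pseudogene. LINC01122 is on the short arm of chromosome 2, and BAGE2, the transcribed pseudogene, on chromosome 21.

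The recurring regions were unevenly spread over chromosomes, at a mean of 6.39 per 100 Mb of usable length. Chromosome 7 held 27 (17.3 per 100 Mb), chromosome 22 held 5 (12.5), chromosome 2 held 27 (11.2) and chromosome 1 held 24 (10.5). At the other end chromosome 18 held 1 (1.30), chromosome 20 also 1 (1.56) and chromosome 13 held 2 (2.04). Peaks of single libraries followed in part. Chromosome 7 had 7.45, 3.33 and 3.63 peaks per Mb in Naive 1, 2 and 3, against 4.19, 2.02 and 2.71 over all chromosomes, and stood above that value in each. Gene-rich chromosome 19 had 1.33, 0.895 and 0.877 peaks per Mb and 2 recurring regions. Over the 23 chromosomes, Spearman's rho between protein-coding genes per Mb and peaks per Mb was -0.68, -0.59 and -0.69, values that share the Input and the genome sequence.

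**Figure D4:**
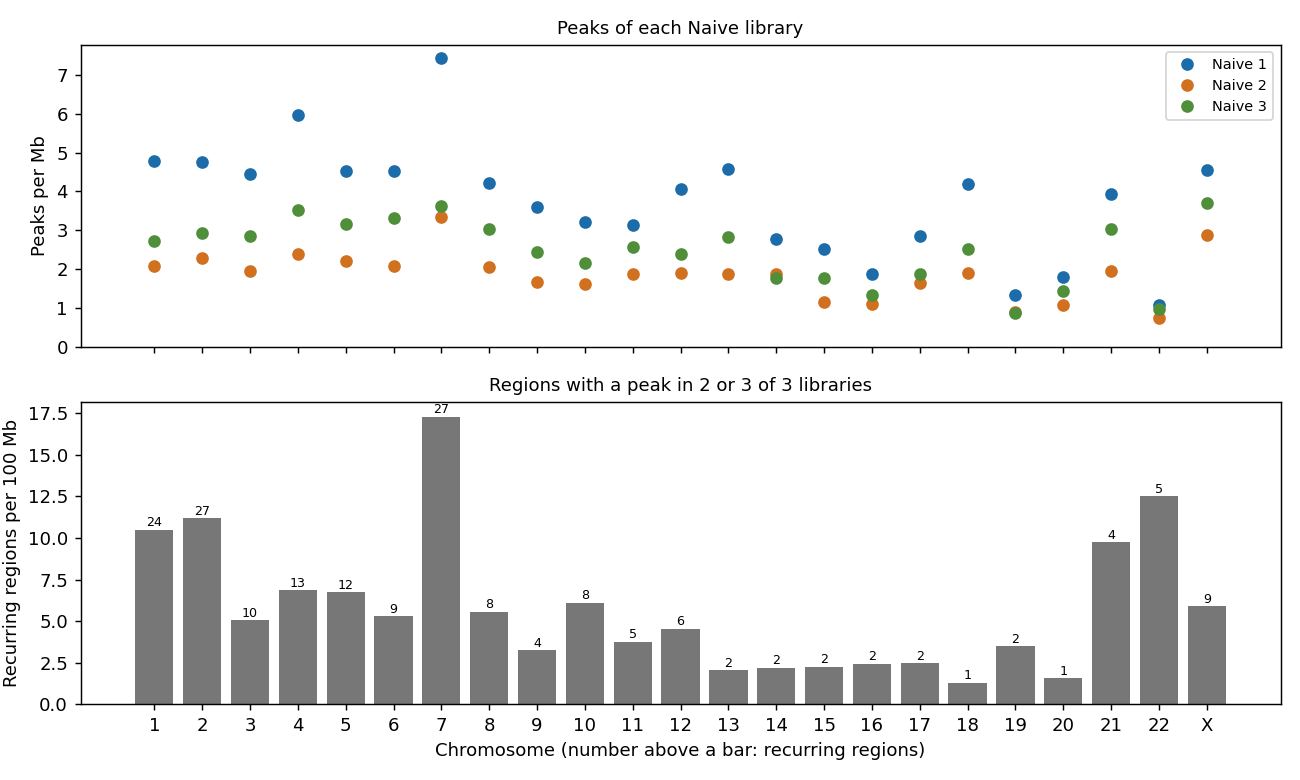
Peaks per Mb of each Naive library (top, points) and recurring regions per 100 Mb (bottom, bars with their number) by chromosome (x axis). Chromosome 7 has the highest bar, 17.3 per 100 Mb, and chromosomes 19 and 22 the fewest peaks per Mb in each library.

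Within chromosomes 1 and 2 the regions crowded on 1 arm. On chromosome 1, 18 lay beyond the large gene-free gap at the centromere (17 per 100 Mb) and 6 before it (4.92). On chromosome 2, 22 lay before the gap (23.7) and 5 beyond it (3.36). On chromosome 7 the sides were alike, with 11 before (19) and 16 beyond (16.3), and chromosome 17 had 0 before and 2 beyond. Chromosome 7 and the dense arms of 1 and 2, grouped after their densities were seen, made up 12.3% of usable length. They held 67 of the 185 regions (36.2%), or 18.9 per 100 Mb against 4.64 elsewhere. As the grouping used these same regions, part of that contrast is set by the choice. The peaks of Naive 1, 2 and 3 were 1.80, 1.63 and 1.30 times as dense there as elsewhere.

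SH-SY5Y is known to carry extra copies of chromosome 7 and of parts of 1q, 2p and 17q. The local background, which MACS2 takes from the Input, was also higher in the dense segments. Its median over the peaks of Naive 1, 2 and 3 was 1.36, 1.32 and 1.60 fragments inside the dense segments and 1.03, 1.04 and 1.13 outside. The share of peaks at or just above the genome-wide floor was 7.59%, 14.1% and 17.4% inside against 47.0%, 57.7% and 63.3% outside. Chromosome 17 beyond its gap had a background median of 1.28, 1.21 and 1.46 fragments, against 1.0, 1.03 and 1.17 before it. Its 2 recurring regions made 3.45 per 100 Mb, against 4.64 outside the dense segments. Peaks per Mb of chromosome 17 were 3.34, 1.90 and 2.05 beyond the gap and 1.57, 0.957 and 1.43 before it. Because the files hold values at peaks only, the part of DNA copy number in the crowding was not tested.

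On chromosomes 21 and 22 every recurring region lay in the stretch next to the centromere. The 4 regions of chromosome 21 lay between 8.02 and 10.5 Mb and the 5 of chromosome 22 between 10.7 and 12.5 Mb. In the first stretch Naive 1, 2 and 3 had 12, 6 and 16 of their 161, 80 and 124 peaks on the chromosome. In the other they had 15, 7 and 15 of 43, 29 and 39. The 3 strongest chromosomal regions seen in 2 libraries, by the lower of their −log10 p values, were here. The region chr22:12195462-12195696 had 11 fragments in Naive 1 and 11 in Naive 3, with folds of 5.77 and 5.40, and was the only chromosomal region at a q-value of 0.05 or less in 2 libraries. The region chr21:8036588-8036780 had 10 in Naive 2 and 12 in Naive 3, and chr22:10710349-10710583 had 12 in Naive 1 and 13 in Naive 2. Another, chr21:8017994-8018175, had 16 in Naive 2 and 15 in Naive 3. None of these lies in an annotated gene, and OR11H1, the gene nearest to the regions of chromosome 22, is 2990 kb or more away. These stretches are known for segmental duplications and satellite repeats, where reads from several copies can collect on 1 place. Over the peaks of Naive 1, 2 and 3 the median local background was 1.77, 1.90 and 2.00 fragments in the first stretch. In the other it was 1.31, 1.79 and 2.00, against 1.06, 1.09 and 1.14 over all chromosomal peaks. The part of repeats in these regions was not tested.

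Recurring regions also lay near each other on other chromosomes. Of the 185, 49 had a neighbour within 1 Mb, a count that includes all those of chromosomes 21 and 22. On chromosome 2, 4 regions lay in chr2:81057373-82290598, where the lncRNA gene LOC102724542 holds 1 of them. The nearest protein-coding gene, CTNNA2 for neuronal alpha-catenin, is far off, at 408.6 to 1642 kb from the regions. The closest pair was 11.5 kb long in all, chr7:137213053-137224554, beside PTN, which encodes the growth factor pleiotrophin. Its regions had 8 fragments in Naive 1 and 8 in Naive 2, and 6 in Naive 1 and 8 in Naive 3.

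Recurring regions were densest where protein-coding genes are few. In 1 Mb bins with 0 protein-coding genes there were 11.5 recurring regions per 100 Mb, with 1 to 4 genes 8.06, with 5 to 9 genes 3.95, with 10 to 19 genes 3.27 and with 20 or more 4.55. The numbers of regions were 40, 90, 31, 14 and 10, and the last bins, which hold few regions, broke the decline.

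The unplaced contigs held the tallest and most recurrent peaks. They carried only 72, 62 and 66 peaks in Naive 1, 2 and 3, of which 18, 24 and 22 (25%, 38.7% and 33.3%) lay in recurring regions. The 29 regions were on 23 of 58 contigs, and 6 had a peak in all 3 libraries. Their peaks had a median of 16.5 fragments at the summit over a median background of 4.55 fragments, against 7 over 1.13 in the chromosomal regions. The folds over background were lower, with a median of 2.85 against 3.52. At a q-value of 0.05 or less in 2 libraries there were 7 contig regions, against 1 on the chromosomes.

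The strongest contig regions combined tall summits with a tall background in the Input. On KI270467.1 (2841 to 3235) the summits held 156, 144 and 151 fragments over a background of 62, 60 and 66. On KI270466.1 (254 to 594) they held 136, 91 and 86 over 32, 34 and 28. On KI270709.1 (7179 to 7588) they held 113, 144 and 180 over 60, 64 and 65. On KI270512.1 (920 to 1468) the summits held 62, 60 and 68 fragments, and no base was common to the 3 peaks. On KI270725.1 the 2 regions were lower, with 12, 11 and 9 fragments at 105713 to 106188 and 13, 11 and 16 at 101940 to 102263. Regions in 2 libraries reached 229 and 254 fragments on KI270304.1 in Naive 2 and 3, over 134 and 154, and 41 and 42 on GL000214.1. The strongest 5 peaks by −log10 p were all on contigs in Naive 1 and 2, and 4 of 5 in Naive 3. Such contigs are known to hold repeats that exist in many copies, and the part of copy number in these summits was not tested.

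The strongest chromosomal peaks of each library mostly did not recur. In Naive 1 they were chr17:54704806-54705026 with 14 fragments and places in IGH, the immunoglobulin heavy chain locus, in the RhoGAP gene DLC1, in the pseudogene FGF7P3 and at chr4:34508345-34508549, each with 12. In Naive 2 they lay in DLG2, the gene of a postsynaptic scaffold, in the cadherin gene CDH12 and at chr7:145340577-145340766, each with 12, and in CROCC and ENAH with 11. In Naive 3 they were chr9:60638758-60638961 with 17, the LOC105369435 region with 19, and DISP3, chr3:91282759-91282953 and chr4:33236819-33237079 with 12 each. Of these 15 peaks only that of LOC105369435 was shared with another library.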

How the data were processed

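ChIP-seq peaks of 3 Naive libraries, each called by the authors against 1 Input, were used. Per the submitters' processing notes, reads were handled with cutadapt 1.1, Trimmomatic 0.32, Bowtie (version not stated) and MACS2 2.2.7.1 on GRCh38. Per the file headers, narrow peaks were called at a p threshold of 0.01, 1 read was kept per position, fragment lengths were 151, 163 and 178 bp, libraries were scaled down to the depth of the Input, and local background was taken over 1000 and 10000 bp with a genome size of 2.7e+09 bp. Reads kept were 17813944, 18147647 and 17813382, and 17074000 in the Input, per the file headers. The deposited files give each peak's pileup signal, −log10 p-value, −log10 q-value and fold enrichment, a ratio over local background. These values are the authors' and were used to describe, rank or filter peaks. The headers say that q-values were not to be calculated, but the column is filled and was used as given.

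From these, fragments at the summit were computed by undoing the scaling of the pileup (within 0.0053 of a whole number), and the local background from pileup and fold with the pseudocount of 1 that MACS2 adds. The merging of peaks was tested on simulated data (python 3.11.15, pandas 2.3.3, numpy 2.4.6, scipy 1.17.1, matplotlib 3.10.9). Gene spans and start sequences came from RefSeq (GRCh38.p14), in which the strand was known for 79.17% of protein-coding genes. Usable length was 2896 Mb of 1 Mb bins. Location classes, in order, were gene end, gene interior, noncoding gene or pseudogene, and no annotated gene. The Y chromosome was not used.

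With 1 group there was no test between groups, so values are given per library, as mean ± SD, or as a share with its Wilson interval. Genes were named by rule: those of regions in 3 of 3 libraries, the 10 strongest gene-end and interior regions in 2 libraries by the second-highest −log10 p, genes with the most regions, the 5 strongest peaks per library, PRMT5 and L1CAM. Other items were named after their values were seen: the strongest chromosomal peaks, members of gene lists with any peak and list members with weaker regions. So were the genes of the start sequences and the places on chromosomes 1, 2, 7, 21 and 22. The regions and gene lists were chosen with earlier results of these data known. Alternatives were stricter p and q thresholds, other merging rules, equal peak numbers, other gene windows and leaving out each library. Some results of this rule are not reported here.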

Additional observations from a re-analysis of the deposited data

How the results depend on the processing

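Of 109 alternative values 67 stayed within the limits set for the same result and 42 moved. The 185 recurring chromosomal regions became 99 at −log10 p of 3 or more, 6 at 5 or more, 1 at a q-value of 0.05 or less, and 98 with 5839 peaks taken from each library. Without 1 library they numbered 51 to 87. Regions in 3 of 3 libraries, 4 in the main count, numbered 0 at −log10 p of 5 or more, 0 at the q threshold, 2 with equal peak numbers and 10 with contigs included. The 68 genes became 35, 2, 0 and 34 at −log10 p of 3, of 5, at the q threshold and with equal numbers, and 21 to 30 without 1 library. The gene-end share of 1.62% became 0 at −log10 p of 5, 0 at the q threshold, 0 with equal numbers, 0 with windows of 1 kb and 5.41% with 5 kb, and 0 to 3.7% without 1 library. At the q threshold the 1 region left put the interior share at 0, the intergenic share at 100% and the share on chromosome 7 and the dense arms of 1 and 2 at 0. That last share, 36.2%, was 29.4% without Naive 1 and 53.7% without Naive 3. Peaks per library fell to 997.3 and 43 at −log10 p of 5 and the q threshold, and covered length to 194.8 and 9.727 kb. At the q threshold the gene-end share of peaks was 0 and the interior share 33.94%. Several of these shifts follow by construction. The stricter thresholds leave fewer peaks, as do equal numbers in Naive 1 and 3. With 1 library left out, only 1 pair of libraries can share a peak. Contigs add regions, and wider gene windows take in more sequence. For the other shifts the cause was not tested. The quartiles of fragments at the summit were 6 and 8 in each library, and no alternative varied the depth. No paired analysis was possible because 1 group was described and no test was made.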
